A study of Danio rerio with 12 samples.

Results

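The genes described here encode the protein subunits of the mitochondrial ribosome. They were the rows of the count table whose Ensembl gene symbol, in any case, began with mrpl or mrps and a digit. The rule found 75 of the 32520 genes in the table. Of these, 47 carried a symbol of the large subunit (mrpl) and 28 a symbol of the small subunit (mrps). Symbols are spelled here as the symbol table gives them, some in the human style.

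The data were total RNA sequencing libraries from whole zebrafish embryos collected 12 hours post fertilization. The 12 libraries formed 4 groups of 3. Wild-type AB/Tuebingen embryos were kept in 0.1% DMSO or in 100 µM 5AzadC, or 5-aza-2'-deoxycytidine, an analogue of cytidine that traps DNA methyltransferases. Embryos of a line titled H2A.ZmCherry, whose genotype is labelled as H2A.Z overexpression, received the same 2 treatments, also from just after spawning. H2A.Z is a histone variant and mCherry a red fluorescent protein. The labels used here do not give the promoter of that transgene, the number of lines behind it, or whether the replicates came from separate clutches. The p-values below therefore measure the spread between these libraries, which may be technical.

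Mitochondria keep a small genome that encodes core subunits of the respiratory chain and ATP synthase, and they translate its messages on a ribosome of their own. All proteins of that ribosome are encoded in the nucleus, made in the cytosol and imported. The small subunit decodes the message and the large subunit joins the amino acids. Many of its proteins have counterparts in the bacterial ribosome, and the others are specific to mitochondria.

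The members were sparsely counted. Library totals ran from 1142051 to 1904063 counts, and the 75 members together received 977 to 2029 counts per library. By group mean this was 0.0858% to 0.106% of all counts. A total of 49 members, 29 of the large and 20 of the small subunit, passed the filter on low counts and were tested. Their median level was 14.1 CPM, which are counts divided by the library total and its TMM factor and set to a common scale, and the median of all 12293 tested genes was 24.3 CPM. The median tested member had 21.4 counts per library.

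The other 26 members, 18 large and 8 small, were not tested and held 4.16% of the members' counts. Of these, 15 had some counts, and 11 were listed at 0 in all 12 libraries. The 11 included MRPL10, the base of the stalk that recruits translation factors, MRPL45, which anchors the human mitoribosome at the inner membrane, and mrps18c, a paralog in the S18 family. A floor of 3 counts in a library was the limit that a count of 0 allowed. Since ribosomal subunits that respiring cells use are among them, these zeros were not read as absence of expression. The 13 matched mitochondrially encoded genes, whose messages this ribosome translates, were also at 0 in every library. Of the named members below the filter, mrpl58, a peptidyl-tRNA hydrolase built into the human large subunit, had 1 to 8 counts per library. MRPS22, a mitochondria-specific protein of the small subunit, had 0 to 9.

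With 5AzadC the summed level of the members was higher than with DMSO in the H2A.ZmCherry line, and its libraries did not overlap. All 75 members together summed to 878, 844 and 818 CPM in the 3 H2A.ZmCherry DMSO libraries. With 5AzadC they summed to 1047, 1082 and 1040 CPM. The means were 847 ± 30.2 and 1056 ± 22.6 CPM (SD, n = 3), a ratio of 1.25. All 3 treated libraries stood above all 3 controls. In wild type the sums were 942, 894 and 822 CPM with DMSO and 1037, 1011 and 895 CPM with 5AzadC. These groups overlapped, with means of 886 ± 60.4 and 981 ± 75.7 CPM and a ratio of 1.11. Without the 10 members with the highest CPM, which held 41.0% of the members' counts, the H2A.ZmCherry libraries again did not overlap. Those sums were 490 ± 10.9 with DMSO and 649 ± 17.8 CPM with 5AzadC. In whole-embryo RNA, a change in the number of cells of a type and a change in RNA per cell cannot be told apart. No test was made on a sum over members.

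The ratio of the large subunit was above that of the small in both genotypes, by a margin that in the H2A.ZmCherry line was small once a single library was left out. In the H2A.ZmCherry line the 47 large-subunit genes summed to 573, 540 and 464 CPM with DMSO and to 695, 702 and 665 CPM with 5AzadC. These libraries did not overlap, and the ratio of the means was 1.31. The 28 small-subunit genes summed to 305, 304 and 354 CPM with DMSO and to 352, 380 and 375 CPM with 5AzadC. Here replicate 3 of DMSO reached into the treated range, and the ratio was 1.15. Without that library the ratios were 1.24 for the large and 1.21 for the small subunit, and neither overlapped. In wild type the ratio was 1.13 for the large and 1.06 for the small subunit, and both overlapped.

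**Figure D1:**
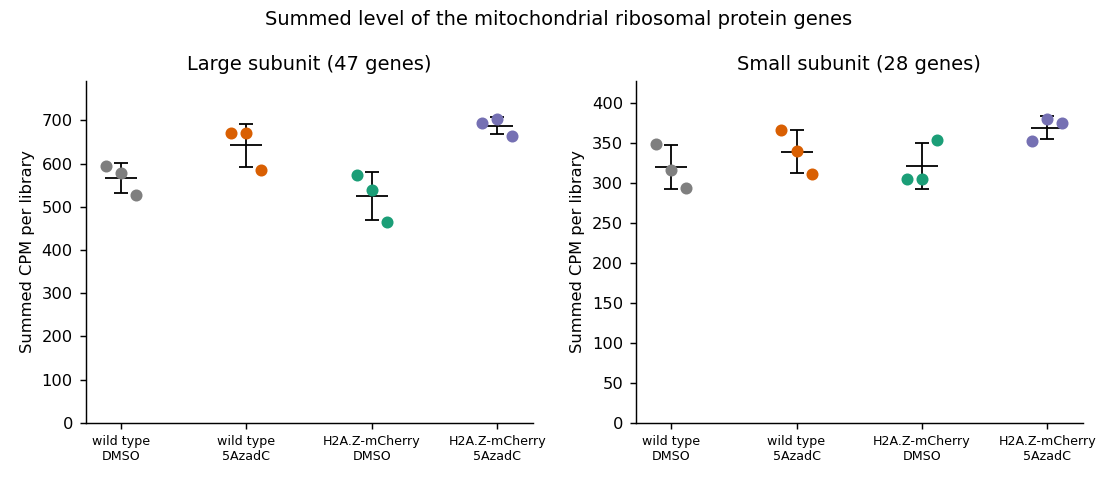
Summed CPM of the 47 large-subunit and 28 small-subunit genes in each of the 12 libraries, with points for libraries and bars for the mean and SD of each group of 3. The large-subunit sums of the H2A.Z-mCherry line sit at 464 to 573 CPM with DMSO and at 665 to 702 CPM with 5AzadC, while the small-subunit sums of the same groups overlap.

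A single library stood apart in the balance of the subunits. The large subunit took 56.7% of the members' counts in H2A.ZmCherry DMSO replicate 3 (95% exact binomial interval 53.5% to 59.8%, counting error only). In the other 11 libraries it took 63.0% to 66.4%. The summed CPM of the large subunit was 1.31 times that of the small subunit in that library and 1.70 to 1.97 times in the others. Without that library, the median log2 fold change of the large subunit exceeded that of the small by 0.22 in the line and by 0.14 over both genotypes. With it, these values were 0.32 and 0.31.

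In wild-type embryos few single members changed with 5AzadC. Of the 49 tested members, 2 rose and 1 fell at an adjusted p under 0.05 (edgeR quasi-likelihood test, Benjamini-Hochberg over all 12293 tested genes), which is 6.12% of them. Among all tested genes 10.7% rose and 11.7% fell, 22.3% in all, and 11.9% of those at a mean of 20 CPM or less were called. At that level lay 33 of the 49 members, 2 of them called. Both of these background shares were above that of the members. Of the tested members, 10 lay above their DMSO libraries without overlap and 1 below, where 17.4% of all genes lay above and 17.8% below, 35.2% in all. The median log2 fold change was 0.24 for the large subunit, 0.13 for the small and 0.01 for all tested genes. DESeq2 called none of the members. The authors' deposited table called none of the 56 to which it gave an adjusted p. It also came from DESeq2 on these libraries, so it is not a separate check.

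The member that fell in wild type was mrps18b (ENSDARG00000007065), one of the vertebrate paralogs of bacterial S18, part of the small subunit. It stood at 23.6, 22.1 and 16.02 CPM with DMSO and at 5.86, 7.31 and 13.6 CPM with 5AzadC. The treated libraries all lay below the controls. Its log2 fold change was -1.23 ± 0.39 (SE), with an adjusted p of 0.016 by edgeR. The adjusted p rose to 0.0636 without DMSO replicate 1, to 0.0518 without DMSO replicate 2, to 0.113 without 5AzadC replicate 1 and to 0.0649 without 5AzadC replicate 2. By DESeq2 it was 0.0572.

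MRPL57 (ENSDARG00000007285), a small mitochondria-specific protein of the large subunit, rose in wild type. Its level was 3.11, 1.70 and 1.28 CPM with DMSO and 4.40, 8.12 and 10.0 CPM with 5AzadC. All treated libraries were above the controls, which held 5, 3 and 2 counts. The log2 fold change was 1.83 ± 0.68 (SE), adjusted p = 0.0431 by edgeR. It was 0.113 and 0.127 without DMSO replicates 2 and 3, 0.0917 and 0.148 without 5AzadC replicates 2 and 3, and 0.053 without H2A.ZmCherry 5AzadC replicate 3. The call was also lost with library totals (0.055), without a filter (0.0733) and with DESeq2 (0.0635). In a fit of the wild-type libraries alone, MRPL57 did not pass the filter and was not tested. With DMSO, MRPL57 was at 5.59, 6.36 and 11.7 CPM in the H2A.ZmCherry line, above all wild-type DMSO libraries.

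MRPL44 (ENSDARG00000094277), a large-subunit protein with a fold like that of RNase III, also rose in wild type. It stood at 26.7, 23.2 and 29.5 CPM with DMSO and at 43.3, 37.3 and 45.5 CPM with 5AzadC, without overlap. The log2 fold change was 0.66 ± 0.25 (SE), adjusted p = 0.0486 by edgeR. The call was lost without any 1 of 7 libraries. The adjusted p was then 0.0968, 0.164 and 0.0576 without wild-type DMSO replicates 1, 2 and 3, and 0.109 and 0.124 without wild-type 5AzadC replicates 1 and 3. It was 0.0516 and 0.0501 without H2A.ZmCherry 5AzadC replicates 2 and 3. It was 0.0597 with upper quartile factors, 0.0889 with library totals, 0.0847 without a filter and 0.0974 with DESeq2.

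The next members by adjusted p in wild type were MRPL24, at 1.04 on the log2 scale (adjusted p = 0.0677), and, well outside the threshold, MRPS18A, at 1.199 (adjusted p = 0.163). The members with the highest counts gave smaller values. MRPL2, a counterpart of bacterial L2 near the peptidyl transferase centre, had a log2 fold change of -0.20 in wild type and -0.19 in the H2A.ZmCherry line. The mitochondria-specific mrpl39 and MRPL37 had 0.31 and 0.24 in wild type and 0.07 each in the line. For MRPS25, mrps27 and MRPS30 the values ran from -0.08 to 0.29 in wild type and from 0.25 to 0.33 in the line. None of these 6 was called in either genotype.

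In the H2A.ZmCherry line 2 members rose with 5AzadC and none fell, 4.08% of the 49. The background was 8.84% of all tested genes up and 9.03% down, 17.9% in all. Of all genes at 20 CPM or less 7.41% were called, and 2 of the 33 members at that level. In this comparison 13 members lay above their controls without overlap and 1 below, where 17% of all genes lay above and 16.2% below, 33.1% in all. The estimates leaned upward beyond the called genes. Of the 29 tested large-subunit genes, 27 had a positive log2 fold change, with a median of 0.50. Of the 20 small-subunit genes 12 were positive, with a median of 0.18, and the median of all tested genes was 0.02. Of all 12293 genes, 6304 were positive. MRPL33 and mrps21 passed the filter on low counts only because of the treated libraries of this line, so they had to differ from the rest to be counted here. DESeq2 called none of the members. The authors' deposited table, also from DESeq2 on these libraries, called none of the 47 with an adjusted p in it.

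MRPL33 (ENSDARG00000104031), a counterpart of bacterial L33, stood at 1.60, 10.99 and 5.02 CPM with DMSO in the H2A.ZmCherry line and at 17.8, 15.7 and 14.9 CPM with 5AzadC. The treated libraries were above the controls, which spread widely. Its log2 fold change was 1.36 ± 0.50 (SE), adjusted p = 0.0476 by edgeR. The adjusted p was 0.25 and 0.143 without DMSO replicates 1 and 3 of the line, and 0.118, 0.112 and 0.0908 without its 5AzadC replicates 1, 2 and 3. It was 0.051 with upper quartile factors, 0.0521 with library totals, 0.0744 without a filter and 0.106 with DESeq2. In wild type it was at 3.73, 3.96 and 5.77 CPM with DMSO and at 5.86, 4.06 and 10.9 CPM with 5AzadC, and these groups overlapped.

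MRPL32 (ENSDARG00000060489), a counterpart of bacterial L32 whose yeast and mouse forms are matured by a protease of the inner membrane, stood at 11.2, 4.05 and 4.18 CPM with DMSO in the line. With 5AzadC it stood at 15.6, 15.1 and 14.4 CPM, above every control. The log2 fold change was 1.23 ± 0.46 (SE), adjusted p = 0.0487 by edgeR. This call was lost in 10 of the 12 fits with 1 library left out. Within the line the adjusted p was 0.221 and 0.187 without DMSO replicates 2 and 3, and 0.0944, 0.114 and 0.0916 without 5AzadC replicates 1, 2 and 3. It ran from 0.0501 to 0.0534 without wild-type DMSO replicate 1, 2 or 3 or wild-type 5AzadC replicate 1 or 2. With RLE or upper quartile factors or library totals it was 0.0505 to 0.0507, without a filter 0.0895 and with DESeq2 0.097.

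The nearest members outside the threshold in the line were mrpl9, with a log2 fold change of 0.97 (adjusted p = 0.0605), and MRPS11, with 1.02 (adjusted p = 0.0675). They are counterparts of bacterial L9 and S11. Each passed the threshold in a single fit with 1 library left out, mrpl9 at 0.0195 without DMSO replicate 1 of the line and MRPS11 at 0.0183 without its DMSO replicate 2. MRPL12, the stalk protein that contacts translation factors and in human cells also binds the mitochondrial RNA polymerase, had 0.47 ± 0.25 (SE) in the line and 0.03 ± 0.27 in wild type. Its adjusted p-values were 0.208 and 0.956. MRPS12, the counterpart of decoding-centre protein S12, had -1.29 ± 0.72 (SE) in the line, with an adjusted p of 0.226 and overlapping libraries. It and MRPS17 passed the filter only through the DMSO libraries of the line. MRPS17 was the member that lay below its controls without overlap in the line, at -0.32 on the log2 scale (adjusted p = 0.781).

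**Figure D2:**
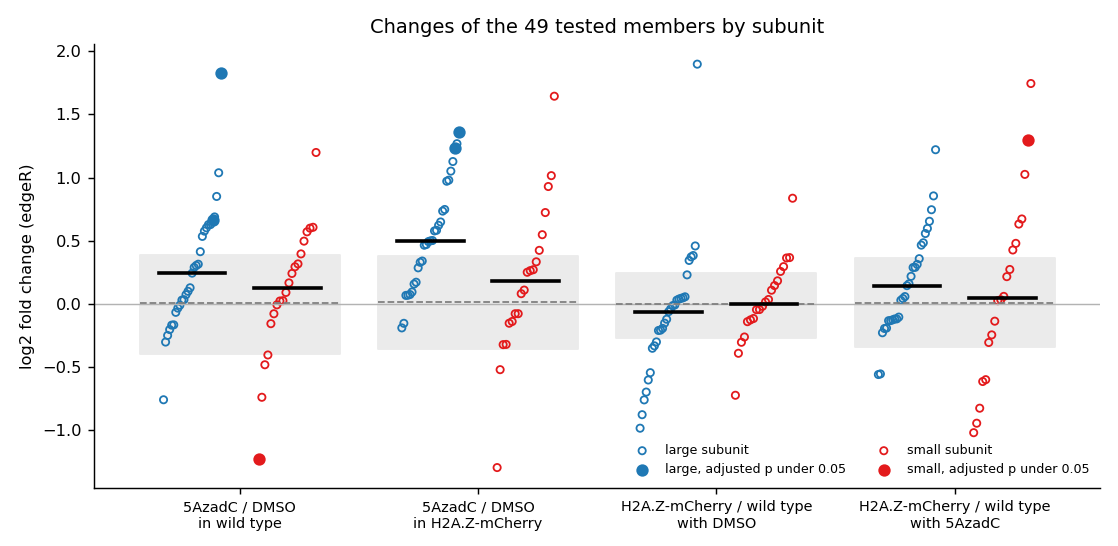
Log2 fold changes of the 49 tested members in the 4 comparisons between groups, large subunit in blue and small subunit in red, filled where the adjusted p is under 0.05. Thick bars are subunit medians, dashed lines and grey boxes the median and quartiles of all tested genes; the large-subunit median in the H2A.Z-mCherry line is 0.50 and that of all genes 0.02.

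Both subunits hold proteins with and without bacterial counterparts. Of the large subunit's genes, 28 have a bacterial counterpart and 19 are mitochondria-specific. For the small subunit the numbers are 16 and 12. The S18 paralogs mrps18b and MRPS18A were placed in the mitochondria-specific class, and MRPS18A and MRPS30 were kept in the small subunit by symbol. In the H2A.ZmCherry line the 20 tested large-subunit genes with a bacterial counterpart had a median log2 fold change of 0.58, and the 9 mitochondria-specific ones 0.34. In wild type the order was the other way, 0.09 and 0.31. Of the small subunit, the medians with and without a bacterial counterpart were 0.09 and 0.17 in wild type and 0.27 and 0.11 in the line. These differences between classes were not tested.

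The wild-type and H2A.ZmCherry responses rest on separate libraries and can be set side by side. Of the 49 tested members 27 had a positive log2 fold change in both genotypes, 4 a negative one in both and 18 opposite signs. Among all tested genes 34.1% were positive in both and 32.4% negative in both, against 55.1% and 8.16% of the members. The positive pairs made up 19 of the 29 large-subunit and 8 of the 20 small-subunit genes. The 4 negative pairs were MRPS34, MRPS9, MRPL2 and MRPS17. Across the 49 members the log2 fold changes of the genotypes had a Pearson r of 0.23 and a Spearman rho of 0.27, and across all tested genes 0.53 and 0.47. These are correlations over genes, which are not independent replicates. Above their controls without overlap in both genotypes were 3 members, 6.12% of the 49, where 6.95% of all genes were: MRPL24, MRPL32 and MRPS18A. For MRPS18A, which passed the filter only through 5AzadC libraries, this position was favoured by the choice of tested genes.

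**Figure D3:**
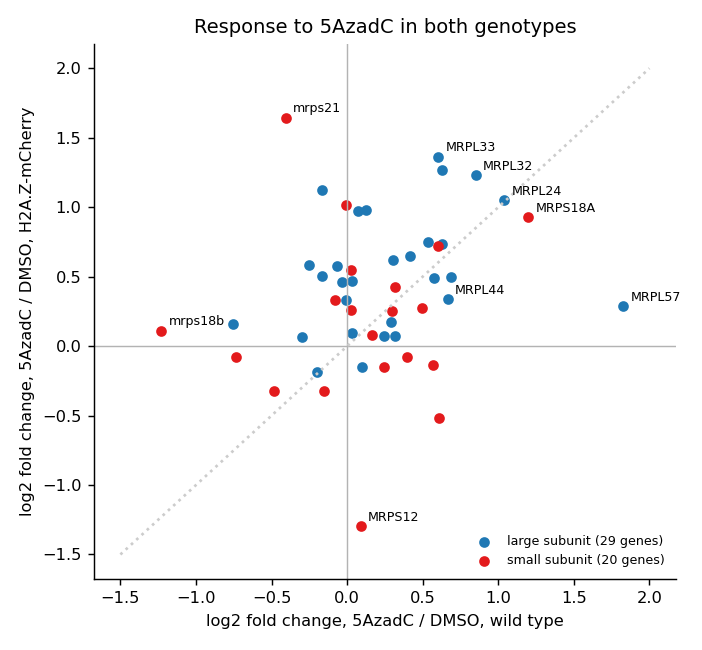
Log2 fold change with 5AzadC in wild type (x axis) and in the H2A.Z-mCherry line (y axis) for the 29 large-subunit (blue) and 20 small-subunit (red) members that were tested; the dotted line marks equal values. Of the 49 points, 27 lie in the upper right quadrant and 4 in the lower left, with mrps18b, mrps21 and MRPS12 far from the dotted line.

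Averaged over both genotypes, a contrast chosen after the data were seen, 5 members rose with 5AzadC and none fell. They include MRPL33, which entered the test only because its level was high in the H2A.ZmCherry 5AzadC libraries. They also include MRPS18A, which entered it only through 5AzadC libraries. The 5 are 10.2% of the tested members, against 14.5% of all tested genes up and 15.4% down, 29.8% in all. Of all genes at 20 CPM or less 17% were called, and 4 of the 33 members at that level. DESeq2 called 2 members. Above all 6 control libraries in all 6 treated ones were 2 members and 4.64% of all genes. No member and 5.66% of all genes lay below, and 10.3% of all genes did not overlap.

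MRPL24 (ENSDARG00000019222) was the clearest of these. It is a counterpart of bacterial L24, which sits where the new protein leaves the ribosome. Its level was 8.71, 9.62 and 5.13 CPM with DMSO and 17.6, 12.2 and 19.1 CPM with 5AzadC in wild type. In the line it was 8.78, 5.78 and 10.0 CPM with DMSO and 11.9, 16.3 and 21.5 CPM with 5AzadC. All 6 treated libraries were above all 6 controls. The averaged log2 fold change was 1.04 ± 0.30 (SE), a 2.06-fold higher level, with an adjusted p of 0.00444 by edgeR and at most 0.0265 when any 1 library was left out.

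MRPL32 rose by 1.04 ± 0.32 (SE) in the averaged contrast, with an adjusted p of 0.00802 by edgeR and at most 0.0436 when any 1 library was left out. In wild type it was at 6.84, 9.06 and 8.33 CPM with DMSO and at 19.8, 13.8 and 10.0 CPM with 5AzadC, so that within each genotype the treated libraries were above the controls. MRPS18A (ENSDARG00000024465), an S18 paralog that lies in the large subunit in mammalian structures despite its name, was at 4.35, 5.09 and 1.92 CPM with DMSO and 8.80, 10.6 and 7.28 CPM with 5AzadC in wild type. In the line it was at 5.59, 5.78 and 2.51 CPM with DMSO and 9.64, 11.035 and 6.66 CPM with 5AzadC. The treated libraries did not overlap the controls, and the averaged log2 fold change was 1.06 ± 0.42 (SE), adjusted p = 0.0487 by edgeR. The DMSO libraries held 3 to 10 counts of MRPS18A, and none reached the level of the filter. It was tested only through 5AzadC libraries, so a higher level there was favoured by the choice of tested genes.

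MRPL44 and MRPL33 completed the list, with averaged log2 fold changes of 0.50 (adjusted p = 0.0228) and 0.98 (adjusted p = 0.0437). Their calls and that of MRPS18A depended on single libraries and on the processing. With DESeq2 the adjusted p was 0.0574 for MRPL44, 0.103 for MRPL33 and 0.0794 for MRPS18A. For MRPL33 it was 0.0578 with library totals and 0.0689 without a filter, by edgeR. For MRPS18A it was 0.0546 with upper quartile factors, 0.0621 with library totals and 0.0806 without a filter, by edgeR. The call of MRPL44 was lost without wild-type DMSO replicate 2, H2A.ZmCherry DMSO replicate 2 or 3, or H2A.ZmCherry 5AzadC replicate 1 or 2, at adjusted p-values of 0.0503 to 0.064. That of MRPL33 was lost without any 1 library other than replicate 3 of wild type with DMSO, replicates 1 and 2 of wild type with 5AzadC and replicate 2 of the line with DMSO, at 0.0613 to 0.175. That of MRPS18A was lost without any 1 library other than replicate 2 of wild type with DMSO and replicate 3 of either genotype with 5AzadC, at 0.0517 to 0.114. MRPL57 lay just outside the threshold at 1.06 (adjusted p = 0.0606). The DMSO libraries alone would not have carried MRPL57 past the filter, so a higher average with 5AzadC was favoured by the choice of tested genes.

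**Figure D4:**
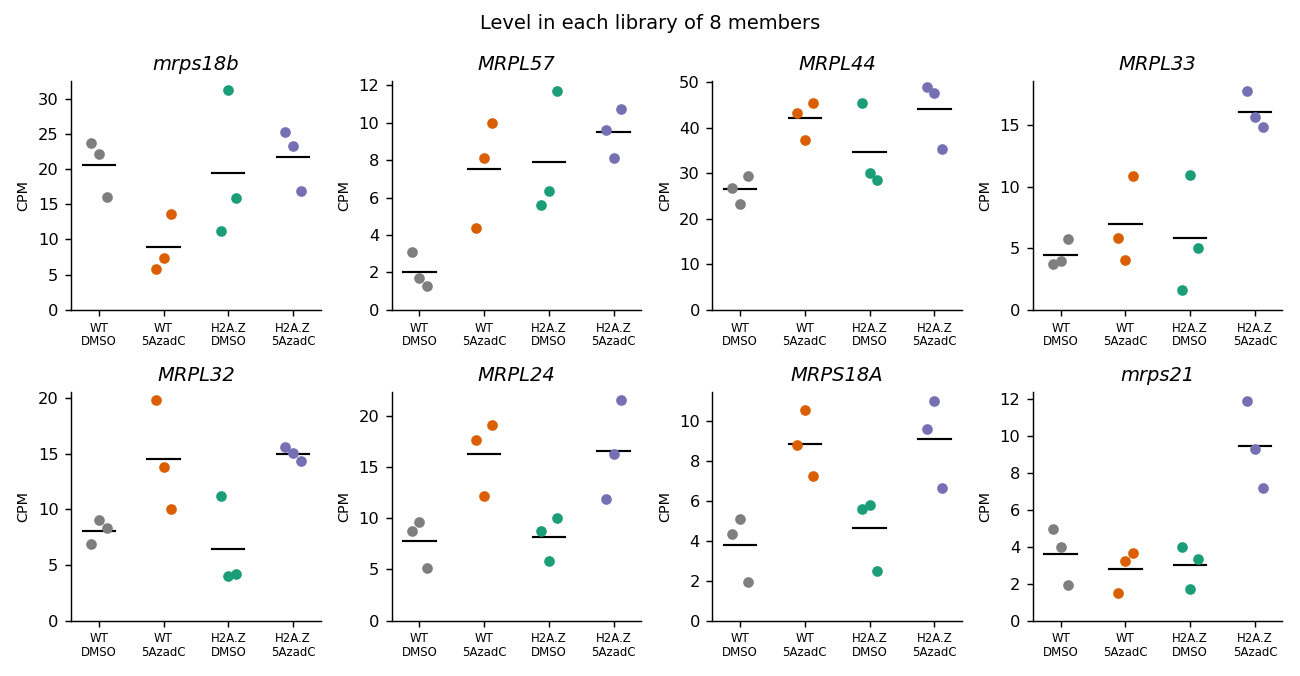
CPM in each of the 12 libraries for the 7 members called in any comparison and for mrps21, with group means as bars. MRPL24 and MRPS18A are higher in all 6 libraries with 5AzadC than in the 6 with DMSO. MRPS18A passed the filter only through 5AzadC libraries. The level of mrps18b is low in the wild-type 5AzadC group, at 5.86 to 13.6 CPM.

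With DMSO no member differed between the H2A.ZmCherry line and wild type, where 2.73% of all tested genes were higher and 2.59% lower, 5.32% in all. By edgeR 2 of the 49 tested members had an unadjusted p under 0.05, against 2097 of all 12293 tested genes, and DESeq2 called no member. The 2 members were MRPL57, at 1.90 ± 0.67 (SE) on the log2 scale and an adjusted p of 0.0845, and MRPL38, a mitochondria-specific large-subunit protein, with -0.60 ± 0.28 and 0.24. Of the members, 2 lay above wild type without overlap and 2 below, where 10.7% of all genes lay above and 10.8% below, 21.5% in all. The median log2 difference was -0.06 for the large subunit and -0.00 for the small.

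With 5AzadC, 1 member was higher in the H2A.ZmCherry line than in wild type, 2.04% of the 49, where 8% of all tested genes were higher and 7.61% lower, 15.6% in all. This was mrps18b, at 25.2, 23.2 and 16.9 CPM in the line and 5.86, 7.31 and 13.6 CPM in wild type, without overlap. The log2 difference was 1.30 ± 0.39 (SE), adjusted p = 0.0149 by edgeR and 0.0608 by DESeq2. The comparison shares its wild-type 5AzadC libraries with the fall of mrps18b described above. The call was lost at 0.108 and 0.0577 without wild-type 5AzadC replicates 1 and 2, and at 0.0605 and 0.0507 without the line's 5AzadC replicates 1 and 2. The next members were MRPS9, at 1.03 (adjusted p = 0.0613), and mrps21, at 1.74 (adjusted p = 0.0858). Only the line's 5AzadC libraries carried mrps21 past the filter, so its higher level there was favoured by the choice of tested genes. MRPS9 passed the threshold without 5AzadC replicate 1 of wild type (0.0244) or of the line (0.0484). It did so in no other fit with 1 library left out, and was at 0.323 without wild-type 5AzadC replicate 3. Of the members, 10 lay above wild type without overlap and 2 below, where 15.5% of all genes lay above and 15% below, 30.5% in all. The summed level of all 75 members was 1.076 times as high in the line. The libraries did not overlap, but only narrowly. The highest wild-type library was at 1037 CPM and the lowest of the line at 1040 CPM.

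No member had a response to 5AzadC that differed between the genotypes at the threshold, where 1.9% of all tested genes had a higher and 1.85% a lower one in the line, 3.75% in all. By edgeR 1 of the 49 tested members had an unadjusted p under 0.05, against 1982 of all 12293 tested genes, and DESeq2 called no member. The 1 member was mrps18b, whose response differed by 1.34 ± 0.52 (SE) on the log2 scale, adjusted p = 0.154. In the line it stood at 11.2, 31.2 and 15.9 CPM with DMSO, a wide spread. Without the DMSO library at 31.2 CPM, replicate 2, the adjusted p was 0.0398 by edgeR. This was the only 1 of the 12 fits with 1 library left out that passed the threshold. The highest adjusted p among them was 0.353, without wild-type 5AzadC replicate 1. The difference for mrps21, a counterpart of bacterial S21, was 2.05 ± 1.05 (SE), adjusted p = 0.324. Its level was 1.47 to 4.98 CPM in the 9 libraries of the other groups and 11.9, 9.29 and 7.18 CPM in the line with 5AzadC, the group that alone carried it past the filter, so a higher level there was favoured by the choice of tested genes. MRPL57 differed by -1.54 ± 0.88 (SE), adjusted p = 0.402.

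Other genes of translation and of mitochondria were taken from lists drawn up by known role. Genes with symbols like those of the cytosolic ribosomal proteins gave the broadest change. They were taken by symbol alone, so the set may hold genes that are not ribosomal proteins. Of 71 tested genes whose symbols begin with rpl or rps and a digit, 56 rose with 5AzadC in wild type and 54 in the H2A.ZmCherry line, and none fell. This was 78.9% and 76.1% of them called, where 22.3% and 17.9% of all tested genes were. Their median log2 fold changes were 0.56 and 0.37. The tested members of the mitochondrial ribosome had medians of 0.17 and 0.34. The median standard error in wild type was 0.40 for members and 0.31 for all tested genes.

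Of 25 tested genes of mitochondrial protein import, 3 rose in wild type and 6 in the line, and none fell. That is 12% and 24% called, the first below and the second above the 22.3% and 17.9% of all tested genes. The channel subunit TOMM40 rose in wild type by 0.63 ± 0.16 (SE, adjusted p = 0.00163) and the chaperonin HSPD1 by 0.66 ± 0.13 (adjusted p = 3.73e-05). TIMM17A, of the inner membrane translocase, had the largest increase in the line. It was at 7.18, 14.5 and 12.6 CPM with DMSO and at 40.0, 45.9 and 27.7 CPM with 5AzadC, without overlap. Its log2 fold change was 1.69 ± 0.32 (SE), adjusted p = 4.81e-05. The median log2 fold change of the list was 0.32 in wild type and 0.59 in the line.

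For the lists that follow, 10.7% of all tested genes rose and 11.7% fell in wild type, and 8.84% rose and 9.03% fell in the line. Of 9 tested genes on the list of translation factors 1 fell in wild type (11.1%) and 2 fell in the line (22.2%). LRPPRC, listed there but known for stabilising mitochondrial messages, was the wild-type gene and 1 of the 2 in the line. Its call in the line was lost without the line's DMSO replicate 3 (adjusted p = 0.12 by edgeR) or 5AzadC replicate 3 (0.0994). In wild type LRPPRC was at 237, 217 and 242 CPM with DMSO and at 128, 155 and 162 CPM with 5AzadC. The groups did not overlap, and the log2 fold change was -0.65 ± 0.12 (SE), adjusted p = 1.1e-05. Of 15 tested mitochondrial aminoacyl-tRNA synthetases 1 fell in each genotype (6.67%) and none rose. Of 18 tested assembly and rRNA modification factors 1 fell in wild type (5.56%), and none was called in the line by edgeR. That list had 1 gene at an unadjusted p under 0.05 there. Of 16 tested genes of mitochondrial DNA expression and RNA processing none was called in wild type, with 5 at an unadjusted p under 0.05, and 1 rose in the line (6.25%). Of all 12293 tested genes, 3962 had an unadjusted p under 0.05 in wild type and 3631 in the line, by edgeR. Apart from the list of translation factors in the line, which includes LRPPRC, the shares called in these lists were below those of all genes.

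Among 14 tested regulators of mitochondrial biogenesis 1 rose and 4 fell in wild type, 35.7% called, and 2 fell in the line, 14.3% called. Among all tested genes 22.3% and 17.9% were called. PPARGC1A, a transcriptional coactivator of mitochondrial genes, had an averaged log2 fold change of -1.003 ± 0.23 (SE), adjusted p = 0.000267. Its level was 25.5, 28.3 and 35.3 CPM with DMSO and 17.6, 13.8 and 14.6 CPM with 5AzadC in wild type. In the line it was 26.3, 22.6 and 33.5 CPM with DMSO and 11.1, 11.6 and 15.9 CPM with 5AzadC. All treated libraries were below all controls. The gene ENSDARG00000007241, which shares the symbol MYC with a second zebrafish gene, rose in wild type by 0.999 ± 0.24 (SE, adjusted p = 0.000879). MYC proteins are known as activators of ribosome synthesis.

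With 5AzadC, 3 of the genes on these lists differed between the genotypes in all 12 fits with 1 library left out. GTPBP10, a GTPase of large-subunit assembly in human cells, was higher in the H2A.ZmCherry line by 1.25 ± 0.34 (SE, adjusted p = 0.00653). The cysteinyl-tRNA synthetase cars2 was higher by 1.39 ± 0.37 (adjusted p = 0.00473). The alanyl-tRNA synthetase AARS2 was lower, with a log2 difference of -1.51 ± 0.38 (adjusted p = 0.00299). Of the 18 tested assembly factors, 1 was higher and 2 were lower in the line, and of the 15 synthetases 1 was higher and 2 were lower. These shares, 16.7% and 20%, lie near the 15.6% of all tested genes. Of 5 tested mitoribosome proteins that the naming rule does not reach, 2 were higher in the line with 5AzadC (40%), where 8% of all tested genes were. Neither of these calls held in all 12 fits with 1 library left out, or with DESeq2.

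Some sums of tissue markers moved with the treatment in the same libraries, and others overlapped between DMSO and 5AzadC. The summed level of 6 epidermis and periderm markers was 4213 to 4841 CPM with DMSO and 7419 to 9104 CPM with 5AzadC in wild type, and 2615 to 3298 and 3031 to 3811 CPM in the line. The 8 muscle markers summed to 5359 to 6243 and 2358 to 2608 CPM in wild type, and to 5078 to 5443 and 2626 to 3517 CPM in the line, with TNNT1 at 0 in wild type with 5AzadC. The 8 neural plate markers summed to 607 to 744 and 344 to 431 CPM in wild type, and to 628 to 659 and 536 to 592 CPM in the line. The 5 yolk syncytial layer markers, with mxtx2 at 0 in every group, summed to 4163 to 4791 and 4322 to 5005 CPM in wild type, and to 4460 to 5009 and 5228 to 6159 CPM in the line. The 4 notochord markers, with COL2A1 at 0 in wild type, summed to 186 to 243 and 179 to 221 CPM in wild type, and to 219 to 271 and 204 to 253 CPM in the line. The 3 germline markers summed to 11.8 to 22.6 and 22.7 to 36.4 CPM in wild type, and to 4.63 to 16.8 and 8.71 to 9.74 CPM in the line. The part of tissue composition in the members' levels was not tested.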

How the data were processed

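Counts of reads per Ensembl gene in 12 libraries were used as deposited, without normalization per the file headers. The submitters' processing notes name STAR, featureCounts 2.0.3 (Subread), DESeq2 1.22.2, deepTools and GRCz11. Not given in the sources used here: annotation release, strand setting, treatment of multiply mapped reads. The authors' deposited DESeq2 tables (mean normalised count signal, log2 fold change and its standard error, Wald score, p-values) were used only for comparison.

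Symbols came from an Ensembl table that matched 29201 of 32520 genes. In R 4.3.3, edgeR 4.0.16 was run with filterByExpr (minimum count 10; 12293 genes with 98.5% of counts kept), TMM factors and a robust quasi-likelihood fit of all 12 libraries with 1 coefficient per group and no block. A call was a Benjamini-Hochberg adjusted p under 0.05 over all tested genes. Standard errors are the log2 fold change divided by the square root of F. CPM are counts over library total times TMM factor. Members and lists were chosen with earlier results of these data known, and the average over genotypes and the split at 20 CPM after the data were seen.

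Named members were those called, the nearest to the threshold, the 3 with the highest and lowest counts, and a fixed set of 10 (mrps36 was not used here). Of list genes named by size of change, the text gives only genes called in all 12 fits with 1 library left out. The exceptions are AURKAIP1, the fall of LRPPRC in the line and the difference of GTPBP10 with DMSO. This choice was made after their values were seen. Also called in all 12 fits, but not described, were hcfc1b, which fell in the line, and 2 genes of the averaged contrast. These were FARS2, which fell, and GRPEL1, which rose. Replicates of a group differed beyond sampling noise. Replicate numbers were not used to pair libraries in the main fit. Correlations of same-numbered deviations were weak, from -0.0284 to 0.0142. Scripts were tested on simulated data. Alternatives were other scaling (RLE, upper quartile, library totals), filters, a replicate block, single comparisons, DESeq2 1.42.0, subunits by structure, and leaving out each library. Gene lengths and sequences were not used here, so levels are not compared between genes.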

Additional observations from a re-analysis of the deposited data

Results flagged for a closer look

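AURKAIP1, a protein of the small mitoribosomal subunit that the naming rule does not reach, was the 1 gene among the members and the mitochondrial lists whose response to 5AzadC differed between the genotypes by the test of that difference. Of all tested genes 3.75% were called by that test, a larger share than of the members and these lists together. In wild type AURKAIP1 stood at 24.3, 15.8 and 26.9 CPM with DMSO and at 9.53, 10.6 and 11.8 CPM with 5AzadC. In the H2A.ZmCherry line it stood at 13.6, 15.04 and 15.06 CPM with DMSO and at 33.4, 24.97 and 14.4 CPM with 5AzadC. The wild-type groups did not overlap and those of the line did. The log2 fold change was -1.07 ± 0.37 (SE, adjusted p = 0.0264) in wild type and 0.70 ± 0.34 (adjusted p = 0.156) in the line, and the difference was 1.77 ± 0.50 with an adjusted p of 0.0273 (edgeR). With DESeq2 the adjusted p of the difference was 0.0536.

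The difference held in 5 of the 12 fits that left out 1 library. Without wild-type DMSO replicates 1 and 3 the adjusted p was 0.0678 and 0.0871, and without wild-type 5AzadC replicate 1 it was 0.0742. Without H2A.ZmCherry DMSO replicates 1 and 3 it was 0.0642 and 0.051, and without H2A.ZmCherry 5AzadC replicates 1 and 2 it was 0.13 and 0.0579. The wild-type fall was lost without DMSO replicates 1 and 3 (0.0806 and 0.119) and 5AzadC replicates 1 and 2 (0.0974 and 0.0641). With 5AzadC the gene was 1.16 ± 0.37 (SE) higher in the line on the log2 scale, adjusted p = 0.0196, a call lost without wild-type 5AzadC replicate 1 (0.0826) and the line's 5AzadC replicates 1 and 2 (0.155 and 0.0584).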

How the results depend on the processing

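Alternatives were followed for list genes named by size of change, and for members only where they were called or nearest to the threshold. None of these changed direction. Of the 441 values of such members under alternatives, 85 lost a call and 11 gained one. Members named for their counts or as part of the fixed set were not followed in the other comparisons, so their signs there were not checked. In wild type the number of members called was 1 with library totals, 1 without a filter, 1 with the replicate block and 0 with DESeq2. In the H2A.ZmCherry line it was 1 with RLE factors and 0 with upper quartile factors, library totals, no filter and DESeq2. Between genotypes with 5AzadC it was 2 with library totals and 0 with DESeq2. For the average over genotypes it was 3 with library totals, 3 without a filter and 2 with DESeq2. The wild-type calls of MRPL57 (adjusted p = 0.0552 by edgeR) and MRPL44 (0.052) were those lost with the replicate block. The labels do not say whether libraries of the same number belong together. The other counts with the block were within 1.5 times of the main ones. In the wild-type comparison each number correlated best with itself, but weakly, and in the other comparisons this did not hold for every number. The cause was not tested.

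Leaving out 1 library gave 0 to 3 calls in wild type, 0 to 3 in the line, 0 between genotypes with DMSO, 0 to 2 with 5AzadC, 0 to 1 for the difference of responses and 2 to 6 for the average. In wild type the count was 0 without DMSO replicate 2; in the line it was 0 without DMSO replicate 3 or 5AzadC replicate 1, 2 or 3.

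The median log2 fold change of the large minus that of the small subunit was 0.115 in wild type, 0.319 in the line, -0.0594 and 0.0983 between genotypes with DMSO and 5AzadC, 0.286 for the difference of responses and 0.311 for the average. Pooled over all 4 groups, the SD of this difference between libraries of a group was 0.162. That is above the size of the wild-type value and of both values between genotypes. The pooled SD includes H2A.ZmCherry DMSO replicate 3, the library that stood apart. It is therefore not the spread of the wild-type libraries or of the 5AzadC libraries alone. With a stricter filter the difference was -0.0198 in wild type, -0.0743 between genotypes with 5AzadC and 0.0881 for the average. Between genotypes with 5AzadC it was also negative without a filter (-0.0549) and with DESeq2 (-0.0236). DESeq2 gave -0.181 for the difference of responses, over the 21 members with an adjusted p. Leaving out 1 library gave -0.0824 to 0.302, 0.225 to 0.552, -0.250 to -0.0305, -0.257 to 0.176, -0.0302 to 0.454 and 0.135 to 0.418 in the same order. With MRPS18A and MRPS30 counted in the large subunit it was 0.403 in the line. The depth, with 33 of 49 tested members at 20 CPM or less, limits calls of small changes.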
